A study of Mus musculus with 22 samples.

Results

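The transcription factor p53, encoded by *Trp53*, and 9 of the genes it is known to activate were followed in serially passaged mouse embryonic fibroblasts (MEFs), primary cells that stop dividing and become senescent in culture. The genes are *Trp53*, *Mdm2*, *Ccng1*, *Trp53inp1*, *Bbc3*, *Bax*, *Gdf15*, *Phlda3*, *Zmat3* and *Plk2*, listed by name as p53 and well-known targets, with earlier results of these data known. All 10 were found by symbol among the 55401 gene identifiers that were counted, and all 10 passed the filter on low counts in each fit.

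RNA-seq was done on 22 libraries in 6 groups. The *S6K1* set consisted of WT MEFs at passage 3 (early, 4 libraries), WT MEFs at passage 8 (late, 4 libraries) and *S6K1* KO MEFs at passage 8 (3 libraries). The *S6K1/S6K2* set consisted of its own early WT (passage 3, 4 libraries) and late WT (passage 8, 4 libraries) MEFs and of MEFs lacking both *S6K1* and *S6K2* (DKO) at passage 8 (3 libraries). S6K1 and S6K2 are the ribosomal protein S6 kinases that act below the growth-controlling kinase complex mTORC1, and their genes are *Rps6kb1* and *Rps6kb2*. All MEFs were grown from embryos without head and viscera and were kept at atmospheric oxygen. According to the study's methods, *S6K1* WT and KO MEFs came from littermates, whereas the WT controls of the DKO MEFs came from separate WT mothers bred earlier, so in that comparison genotype and litter cannot be told apart. For its assays of cultured MEFs, the paper counts replicates as MEFs from different embryos. The labels do not say which libraries share an embryo or a culture. The *P* values thus measure the spread between these libraries, which may in part be technical. Since RNA was taken during serial passage, early and late libraries may share lines, and the unpaired tests used here ignore any such pairing. The question addressed here is whether *Trp53* and its targets differed with passage and, at late passage, with loss of one or both kinases.

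p53 is kept low in unstressed cells by the ubiquitin ligase MDM2, which marks it for degradation, and it accumulates when DNA damage, oncogene activity or the product of *Cdkn2a*, p19Arf, blocks MDM2. Active p53 binds paired copies of a short DNA motif near its targets and raises genes for cell cycle arrest, DNA repair and cell death, and *Mdm2* itself is a target, so that p53 feeds back on its own level. Because p53 is controlled mainly as a protein, the transcript of *Trp53* and the transcripts of its targets are separate readouts, and in MEFs the p19Arf-p53 route is known for limiting growth in culture.

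The positions of the genes were taken from RefSeq on GRCm38.p6. *Trp53* (ENSMUSG00000059552.13) lies at chr11:69580348-69591873. Among the regulators and arrest genes, *Mdm2* (ENSMUSG00000020184.15) lies at chr10:117688875-117710758, *Ccng1* (ENSMUSG00000020326.7) at chr11:40748552-40755309, *Plk2* (ENSMUSG00000021701.8) at chr13:110395044-110400844 and *Zmat3* (ENSMUSG00000027663.12) at chr3:32334792-32365665. The span of *Zmat3* overlaps that of another gene, 4930429B21Rik, and since the strand setting of the counting is not given in the sources used here, its counts are uncertain to that extent. Among the death and stress genes, *Trp53inp1* (ENSMUSG00000028211.11) lies at chr4:11156441-11174379, *Bbc3* (ENSMUSG00000002083.13) at chr7:16308398-16318334, *Bax* (ENSMUSG00000003873.11) at chr7:45461695-45466903, *Gdf15* (ENSMUSG00000038508.7) at chr8:70629393-70632470 and *Phlda3* (ENSMUSG00000041801.5) at chr1:135766085-135769134.

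Promoter windows, each from 250 bases before to 50 bases after an annotated start, were found in RefSeq for 8 of the 10 genes, all but *Trp53inp1* and *Zmat3*. The p53 half-site consensus of 10 bases, searched by name on both strands with no mismatch allowed, was present in 4 of the 8, against 9.55% of the 27025 genes with a window. The sequences below show those 4 matches with 10 bases on either side, since *Mdm2* and *Ccng1* are the genes the results turn on and *Trp53* itself holds a match. They are written 5′ to 3′ on the strand of the gene, and capitals mark the half-site. They lie at chr10:117710925-117710954 for *Mdm2*, chr11:40755452-40755481 for *Ccng1* and chr7:45467080-45467109 for *Bax* (all on the minus strand), and at chr11:69580274-69580303 for *Trp53* (plus strand).
Mdm2: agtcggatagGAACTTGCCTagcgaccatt
Ccng1: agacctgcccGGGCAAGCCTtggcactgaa
Bax: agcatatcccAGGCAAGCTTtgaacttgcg
Trp53: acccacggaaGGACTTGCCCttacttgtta

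With no bases allowed between the copies, the half-site of *Ccng1* had the closest partner of the 4. The first 20 bases of its line, 195 to 176 bases before the start, matched 2 adjoining copies of the consensus at 19 of 20 positions, and 29 of the 27025 genes (0.107%) had a window with a match at least as close. Inexact partners set apart by a spacer were not scored. The *Bax* line shows such a stretch, gaacttgcg, shortly after its half-site. The best 20 bases of *Trp53*, *Bax* and *Bbc3* matched at 17 positions, which 7.20% of genes reached, and those of *Mdm2* matched at 15, which 79.2% reached. No window of the 8 genes held 2 exact half-sites 0 to 13 bases apart, as 0.0740% of genes did. These matches describe letters in 300 bases around a start and say nothing about binding, and they leave out introns, where p53 sites of *Mdm2* are known. The 250 bases before the start of *Mdm2* (chr10:117710759-117711008, minus strand) and *Ccng1* (chr11:40755287-40755536, minus strand) are given for context, again with the half-site in capitals.
Mdm2: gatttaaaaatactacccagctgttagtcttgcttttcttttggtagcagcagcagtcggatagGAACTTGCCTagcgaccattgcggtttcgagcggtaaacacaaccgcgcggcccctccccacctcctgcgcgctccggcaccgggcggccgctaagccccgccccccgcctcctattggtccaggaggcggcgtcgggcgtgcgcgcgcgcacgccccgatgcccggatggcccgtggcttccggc
Ccng1: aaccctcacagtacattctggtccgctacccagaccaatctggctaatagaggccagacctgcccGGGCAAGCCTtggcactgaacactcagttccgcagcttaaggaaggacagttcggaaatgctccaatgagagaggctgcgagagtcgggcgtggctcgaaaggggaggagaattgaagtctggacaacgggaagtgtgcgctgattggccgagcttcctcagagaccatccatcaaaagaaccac

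Library totals ranged from 10742454 to 17314832 counts (median 14651363.5), and levels are given below as CPM (a library's count of a gene relative to its total count), scaled by TMM over the 22 libraries. The targeted genes followed the genotypes: *Rps6kb1* was at 14.2 to 23.0 CPM in late KO against 55.6 to 75.3 in late WT MEFs, and in DKO MEFs *Rps6kb1* (20.4 to 28.3 CPM against 64.6 to 87.5) and *Rps6kb2* (0.484 to 1.36 CPM against 11.2 to 16.4) were both below late WT MEFs (edgeR quasi-likelihood test with Benjamini-Hochberg adjustment, adjusted *P* = 0.00744, 0.000786 and 0.000412). The labelled cell type was met by 9 fibroblast markers, including *Col1a1* and *Vim*. Their summed level was lower at late passage without overlap in both sets (28698 to 36192 CPM in early and 19585 to 25479 CPM in late WT MEFs of the *S6K1* set, 30199 to 39245 CPM and 19349 to 26461 CPM in the other), with 2 of 9 called lower in each. Not every marker fell: the log2 fold change was positive for 4 of 9 in the *S6K1* set and 3 of 9 in the other. *Vim* overlapped between early and late WT MEFs in both sets. Markers of macrophages were also present, and their summed level moved the other way with passage. Their 15 genes summed to 450.2 to 1016 CPM in early and 4935 to 10325 CPM in late WT MEFs of the *S6K1* set, and to 544.8 to 1802 CPM in early and 6675 to 11479 CPM in late WT MEFs of the *S6K1/S6K2* set, and 15 of 15 passed the test upward in each set. They summed to 3295 to 4513 CPM in late KO MEFs, where 0 of 15 passed, and to 779.4 to 3043 CPM in DKO MEFs, where 14 of 15 passed downward. In late KO MEFs all 15 still had a negative log2 fold change against late WT MEFs (median −0.88). Of these, 9 were lower without overlap, as were 6.19% of all genes. In such bulk RNA, fewer cells of a type and less RNA per cell cannot be told apart. The 4 Y-linked genes summed to between 0 and 328.0 CPM, near 0 in some libraries of every group but late KO, so embryos of both sexes were present and the fits were repeated with these genes as a covariate. They were at 208.6 to 292.7 CPM in all 3 late KO libraries but at 0.314, 0.160, 241.3 and 0 CPM in late WT MEFs of that set, so sex and genotype were unevenly matched there. In the *S6K1/S6K2* set they were at 253.5, 258.4, 328.0 and 0.0639 CPM in late WT and at 0, 304.8 and 0.124 CPM in DKO MEFs. Sex and genotype were thus unevenly matched in that comparison too. In early WT MEFs they were at 205.7, 0.150, 240.4 and 0.879 CPM in the *S6K1* set and at 0, 255.7, 253.1 and 0 CPM in the other. Sex and passage were therefore also unevenly matched in both sets.

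The early and late WT libraries overlapped in the level of *Trp53* transcript in both sets. In the *S6K1* set it was at 90.8, 66.8, 93.9 and 46.4 CPM in the 4 early WT libraries, at 77.8, 69.1, 93.1 and 71.7 CPM in late WT and at 98.6, 87.1 and 77.2 CPM in late KO MEFs. The *S6K1/S6K2* set had it at 90.4, 83.1, 96.1 and 86.7 CPM in early WT, at 91.6, 90.3, 65.4 and 87.9 CPM in late WT and at 55.9, 50.2 and 66.2 CPM in late DKO MEFs. The DKO libraries were the lowest of their set except that replicate 3 of the late WT MEFs lay just under the highest DKO library. Ordered by their means, the groups ran from DKO (57.5 ± 8.12 CPM, SD, n = 3) through *S6K1* set early WT (74.5 ± 22.3, n = 4), *S6K1* set late WT (77.9 ± 10.8, n = 4), *S6K1/S6K2* set late WT (83.8 ± 12.4, n = 4) and late KO (87.6 ± 10.7, n = 3) to *S6K1/S6K2* set early WT (89.1 ± 5.53, n = 4), and every neighbouring pair in that order overlapped.

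*Mdm2*, the negative regulator of p53 and its target, differed between early and late passage in one of the sets. In the *S6K1* set it was at 160.6, 83.5, 135.0 and 137.3 CPM in early WT, at 144.6, 138.6, 160.0 and 108.7 CPM in late WT and at 168.2, 135.2 and 224.4 CPM in late KO MEFs. The *S6K1/S6K2* set had it at 95.8, 92.6, 154.9 and 169.3 CPM in early WT, at 235.9, 243.7, 290.4 and 227.8 CPM in late WT and at 221.4, 213.4 and 218.8 CPM in late DKO MEFs. All 4 late WT and all 3 DKO libraries of the *S6K1/S6K2* set therefore lay above all 4 of its early WT libraries, whereas the 3 groups of the *S6K1* set overlapped. Ordered by their means, early WT MEFs of the *S6K1/S6K2* set (128.1 ± 39.6 CPM), *S6K1* set early WT (129.1 ± 32.5), late WT (138.0 ± 21.5) and late KO MEFs (175.9 ± 45.1) in the other set, and DKO MEFs (217.9 ± 4.07) each overlapped with the next group, and only the DKO and the late WT MEFs of the *S6K1/S6K2* set (249.4 ± 28.0) at the top did not.

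*Ccng1* encodes cyclin G1, a partner of a phosphatase that acts on MDM2. The *S6K1* set had it at 767.0, 470.8, 699.6 and 570.2 CPM in early WT, at 713.3, 877.0, 991.2 and 619.2 CPM in late WT and at 899.4, 886.5 and 1188 CPM in late KO MEFs. The *S6K1/S6K2* set had it at 576.7, 508.1, 751.1 and 819.8 CPM in early WT, at 934.8, 1077, 979.0 and 993.9 CPM in late WT and at 1063, 1039 and 974.3 CPM in late DKO MEFs. As for *Mdm2*, the late WT and DKO libraries of the *S6K1/S6K2* set lay above its early WT libraries, and the DKO libraries (974.3 to 1063 CPM) fell within the late WT range. Its group means ran from 626.9 ± 132.3 CPM in early WT MEFs of the *S6K1* set to 1025 ± 45.9 CPM in DKO MEFs, and each group overlapped with the next in that order.

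In the *S6K1/S6K2* set *Trp53inp1*, whose product promotes p53 activity and autophagy, was at 84.0, 77.1, 96.9 and 96.1 CPM in early WT, at 149.6, 162.9, 102.7 and 113.5 CPM in late WT and at 159.8, 171.1 and 184.5 CPM in the DKO libraries. There the early WT libraries lay below all others, while the DKO libraries overlapped with the late WT libraries. In the *S6K1* set it was at 90.5, 89.6, 106.5 and 88.0 CPM in early WT, at 73.3, 143.9, 147.7 and 96.7 CPM in late WT and at 100.2, 113.1 and 104.8 CPM in late KO MEFs, with all 3 groups overlapping.

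The other 6 targets overlapped between early and late WT MEFs in both sets. *Bax* was at 210.6 to 255.6 CPM in early WT, 244.2 to 332.2 in late WT and 208.7 to 284.5 in late KO MEFs, and at 172.9 to 284.5 CPM in early WT, 247.2 to 318.3 in late WT and 210.0 to 342.1 in DKO MEFs. *Bbc3* was lower and narrower in range, at 16.1 to 24.5 CPM over the *S6K1* set and 17.6 to 29.4 CPM over the *S6K1/S6K2* set. *Zmat3* was at 98.3 to 143.0 CPM and 100.5 to 154.1 CPM over the 2 sets. *Phlda3* was at 238.2 to 340.8 CPM in the *S6K1* set, and in the *S6K1/S6K2* set its 4 early WT libraries (239.2 to 255.7 CPM) were tightly spaced below most of the late WT (248.1 to 330.1 CPM) and all of the DKO libraries (333.4 to 398.3 CPM). *Plk2* was at 99.9 to 213.4 CPM in the early WT MEFs of the *S6K1* set and at 125.7 to 303.0 CPM in those of the *S6K1/S6K2* set, where replicates 3 and 4 were above 1 and 2, as they were for *Mdm2* and *Ccng1*.

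**Figure D1:**
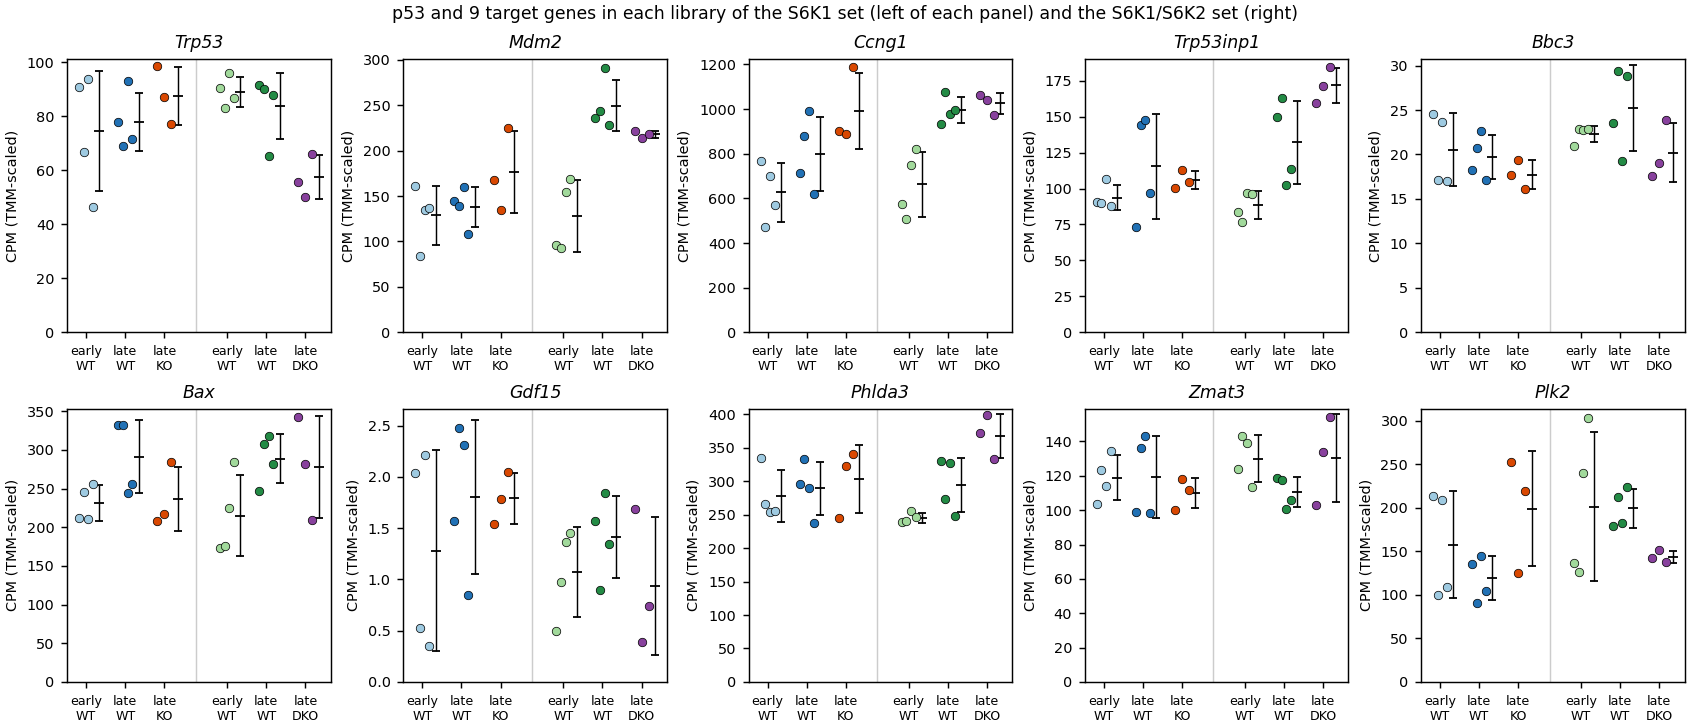
Level of *Trp53* and each of 9 p53 targets in CPM (vertical axes, starting at 0) in every library of the *S6K1* set (left of the grey line) and the *S6K1/S6K2* set (right). Points are libraries, horizontal marks are group means and bars are 1 SD. In *Mdm2*, *Ccng1* and *Trp53inp1* the 4 late WT libraries of the *S6K1/S6K2* set sit above its 4 early WT libraries, and in *Trp53* the 3 DKO libraries sit between 50.2 and 66.2 CPM.

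In the *S6K1/S6K2* set, 3 of the 10 genes rose from early to late passage. These were *Mdm2* (log2 fold change 0.99 ± 0.19, SE, adjusted *P* = 0.0054), *Ccng1* (0.62 ± 0.15, adjusted *P* = 0.0217) and *Trp53inp1* (0.61 ± 0.15, adjusted *P* = 0.0215, edgeR quasi-likelihood test with Benjamini-Hochberg adjustment over 14365 genes), and none fell. *Mdm2* was thus 1.99-fold, *Ccng1* 1.53-fold and *Trp53inp1* 1.52-fold higher in late WT MEFs. Over all genes tested, 1892 (13.2%) passed, 1190 of them upward (8.28%). The median log2 fold change of the 10 genes was 0.36, against 0.013 over all genes tested. The 3 genes that passed were also the 3 whose groups did not overlap, and 20.3% of all genes did not overlap.

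*Trp53* itself did not pass in that comparison (log2 fold change −0.06 ± 0.13, adjusted *P* = 0.795). Of the death genes, *Bax*, a pore-forming effector of mitochondrial apoptosis, had a log2 fold change of 0.46 ± 0.18 (adjusted *P* = 0.117) and *Bbc3*, which encodes the BH3-only protein PUMA, one of 0.21 ± 0.15 (adjusted *P* = 0.382). *Phlda3*, an inhibitor of AKT signalling, was at 0.29 ± 0.12 (adjusted *P* = 0.115), *Zmat3*, an RNA-binding protein, at −0.20 ± 0.13 (adjusted *P* = 0.328) and *Plk2*, a polo-like kinase, at 0.02 ± 0.24 (adjusted *P* = 0.969). *Gdf15*, a secreted stress cytokine, was at 4 to 41 counts per library (0.352 to 2.48 CPM) throughout, and its log2 fold change of 0.43 ± 0.47 (adjusted *P* = 0.565) rests on those few counts.

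The call for *Mdm2* held in all 11 fits that left out 1 library (log2 fold change 0.85 to 1.14, adjusted *P* = 0.00294 to 0.0219). The calls for *Ccng1* and *Trp53inp1* did not: without early WT replicate 1 their adjusted *P* values were 0.0819 and 0.0775, without early WT replicate 2 they were 0.0760 and 0.0848, and without late WT replicate 2 they were 0.0665 and 0.0741, so that 1 of the 10 genes remained. Without late WT replicate 1, *Trp53inp1* alone was lost (adjusted *P* = 0.0560). Without early WT replicate 4, *Bax* also passed (log2 fold change 0.60, adjusted *P* = 0.0394). In the same comparison 15 of 15 macrophage markers were called higher, 5 of 8 proliferation markers lower (summed level 277.6 to 454.9 CPM in early and 200.7 to 246.6 CPM in late WT MEFs) and 2 of 9 fibroblast markers lower, and their part in these changes was not tested. With passage in the *S6K1* set, 0 of 8 proliferation markers were called. Their summed level there was 461.9 to 614.3 CPM in early and 307.8 to 581.8 CPM in late WT MEFs.

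In the *S6K1* set none of the 10 genes passed between early and late WT MEFs (edgeR, and 0 with DESeq2), and at an unadjusted *P* under 0.05 the count was also 0 of 10. Over all genes, 1827 of 14132 (12.9%) passed and 3896 (27.6%) had an unadjusted *P* under 0.05. Log2 fold changes ran from −0.41 ± 0.29 for *Plk2* (adjusted *P* = 0.396) to 0.46 ± 0.54 for *Gdf15* (adjusted *P* = 0.633), with a median of 0.08 against −0.04 over all genes. *Mdm2* was at 0.09 ± 0.22 (adjusted *P* = 0.827), *Ccng1* at 0.35 ± 0.21 (adjusted *P* = 0.302), *Trp53inp1* at 0.30 ± 0.20 (adjusted *P* = 0.368) and *Bax* at 0.33 ± 0.16 (adjusted *P* = 0.203). For all 10 genes the early and late libraries overlapped, where 18.3% of all genes did not. With the Y-linked genes as a covariate, *Ccng1* passed in this set too (log2 fold change 0.49, adjusted *P* = 0.0384).

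Whether the effect of passage differed between the sets was tested as an interaction over all 22 libraries. None of the 10 genes passed (edgeR, and 0 with DESeq2), against 106 of 14886 genes (0.712%), and 1421 genes (9.55%) had an unadjusted *P* under 0.05. *Mdm2* had the largest difference, with a log2 passage effect 0.87 ± 0.30 higher in the *S6K1/S6K2* set, and its unadjusted *P* of 0.0087 was the only one of the 10 under 0.05 (adjusted *P* = 0.303). *Ccng1* (0.23 ± 0.26, adjusted *P* = 0.801) and *Trp53inp1* (0.28 ± 0.26, adjusted *P* = 0.763) did not pass, so the sets are not shown to differ in the genes called in one of them.

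Loss of S6K1 alone moved none of the 10 genes past the threshold (edgeR, and 0 with DESeq2) in the comparison of late KO with late WT MEFs. Over all genes, 6 of 14132 (0.0425%) passed with edgeR and 261 with DESeq2, and 1499 (10.6%) had an unadjusted *P* under 0.05 in edgeR. The late WT libraries are those of the passage comparison, so the comparisons of a set are not independent. *Plk2* was at 135.5, 90.9, 144.8 and 104.4 CPM in late WT and at 252.3, 125.3 and 218.6 CPM in late KO MEFs. Its log2 fold change of 0.74 ± 0.32 was the largest of the 10 and the only one with an unadjusted *P* under 0.05 (0.0371, adjusted *P* = 0.438), and the groups overlapped through replicate 2 of the KO MEFs. *Mdm2* was at 0.35 ± 0.23 (adjusted *P* = 0.649), *Ccng1* at 0.31 ± 0.22 (adjusted *P* = 0.682), *Trp53* at 0.17 ± 0.22 (adjusted *P* = 0.834) and *Bax* at −0.30 ± 0.17 (adjusted *P* = 0.584). With the Y-linked genes as a covariate, *Ccng1* (−0.04), *Trp53* (−0.24) and *Phlda3* (−0.02) turned negative and *Plk2* was at 0.16, none past the threshold. *Bax* was at 331.7, 332.2, 244.2 and 256.6 CPM in late WT and at 208.7, 217.0 and 284.5 CPM in late KO MEFs. For all 10 genes the 2 groups overlapped, where 13.2% of all genes did not. The macrophage markers all had negative log2 fold changes in this comparison without passing, and their part in these levels was not tested.

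In DKO MEFs, *Trp53* was lower on average than in late WT MEFs, by a log2 fold change of −0.56 ± 0.14 (adjusted *P* = 0.0450, edgeR quasi-likelihood test with Benjamini-Hochberg adjustment), a 1.47-fold difference in transcript level. The 2 groups overlapped, where 16.4% of all genes did not. *Trp53* was the only one of the 10 genes that passed, against 686 of 14365 genes (4.78%) in either direction and 3.95% downward. Without late WT replicate 3, the library at 65.4 CPM, the log2 fold change was −0.65 (adjusted *P* = 0.0224). The call was lost in each of the other 10 fits that left out 1 library of the set (log2 fold change −0.67 to −0.45, adjusted *P* = 0.0591 to 0.203) and with no filter, the Y-linked covariate, the 2 groups alone or all 6 groups in the fit (adjusted *P* = 0.0516 to 0.132). The sign did not change in any of these fits.

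None of the 9 p53 targets passed in DKO MEFs in either direction (edgeR, and 0 with DESeq2, with *Phlda3* and *Trp53inp1* at an unadjusted *P* under 0.05, as were 2643 or 18.4% of all genes), 4 of the 10 genes had a positive and 6 a negative log2 fold change, and the median was −0.14 against −0.01 over all genes. *Ccng1* was at 0.03 ± 0.16 (adjusted *P* = 0.957) and *Bax* at −0.07 ± 0.20 (adjusted *P* = 0.900). *Trp53inp1* was at 0.36 ± 0.16 (unadjusted *P* = 0.0435, adjusted *P* = 0.252), *Bbc3* at −0.33 ± 0.17 (adjusted *P* = 0.315), *Zmat3* at 0.22 ± 0.15 (adjusted *P* = 0.457) and *Gdf15* at −0.60 ± 0.53 (adjusted *P* = 0.607).

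In 3 targets the DKO and late WT libraries did not overlap although the test was not passed, and 16.4% of all genes did not overlap in this comparison. *Phlda3* was higher, at 371.6, 398.3 and 333.4 CPM in DKO against 330.1, 272.9, 326.9 and 248.1 CPM in late WT MEFs (log2 fold change 0.31 ± 0.13, unadjusted *P* = 0.0313, adjusted *P* = 0.214). *Plk2* was lower, at 141.7, 151.6 and 138.0 CPM against 179.4, 211.8, 181.9 and 223.9 CPM (−0.49 ± 0.26, adjusted *P* = 0.360). *Mdm2* was lower by a smaller step (−0.21 ± 0.20, adjusted *P* = 0.639). The macrophage markers fell in DKO MEFs, as did 6 of 8 proliferation markers, which summed to 127.6 to 133.3 CPM against 200.7 to 246.6 CPM in late WT MEFs, and the part of either in the level of *Trp53* was not tested.

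**Figure D2:**
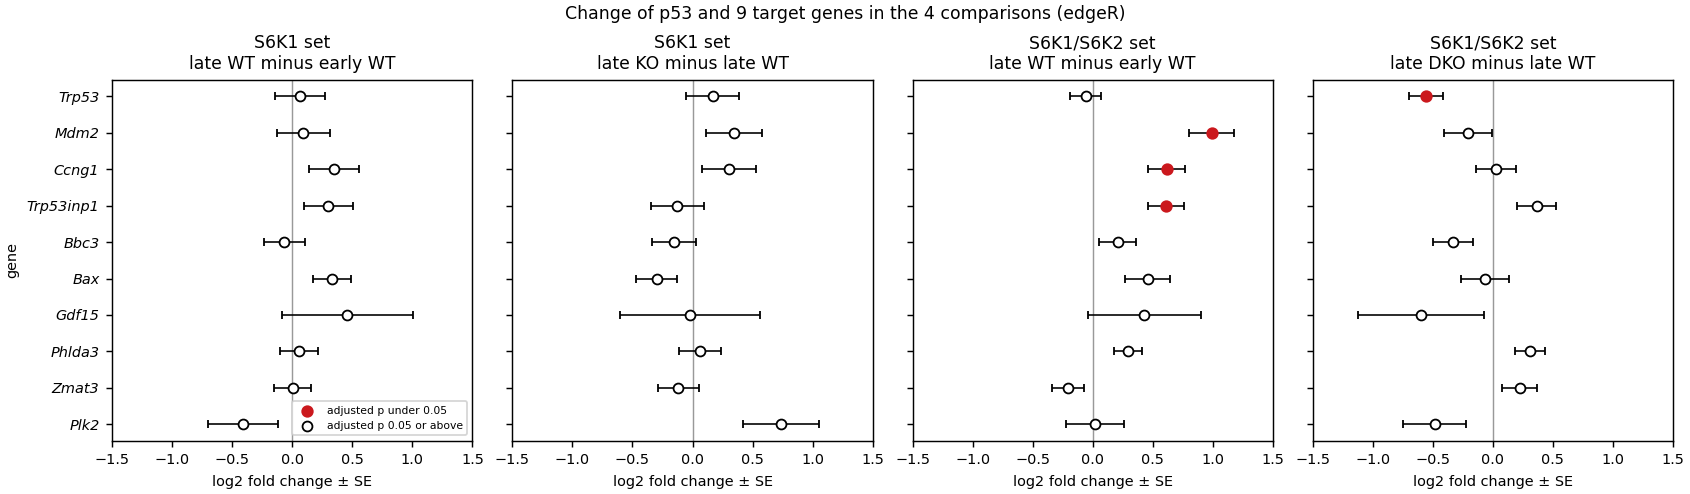
Log2 fold change (horizontal axes) of *Trp53* and 9 targets in the 4 comparisons, from edgeR. Points are estimates, bars are 1 SE, and filled red points passed an adjusted *P* of 0.05. *Mdm2*, *Ccng1* and *Trp53inp1* passed upward with passage in the *S6K1/S6K2* set, *Trp53* passed downward in DKO MEFs, and no point passed in the *S6K1* set.

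The effect of genotype was compared between DKO and *S6K1* KO MEFs as a second interaction. None of the 10 genes passed (edgeR, and 0 with DESeq2), against 1 of 14886 genes (0.00672%), and 1626 genes (10.9%) had an unadjusted *P* under 0.05. That gene was *Rps6kb2*, the gene deleted only in DKO MEFs. *Plk2* had the largest difference of the 10, with a genotype effect 1.21 ± 0.44 lower on the log2 scale in DKO MEFs (log2 difference −1.21, unadjusted *P* = 0.0114, adjusted *P* = 0.338), and *Trp53* was next (−0.71 ± 0.27, unadjusted *P* = 0.0154, adjusted *P* = 0.360). No other member of the 10 had an unadjusted *P* under 0.05.

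The remaining genes of the pathway were read from 4 lists: regulators of p53, other targets for arrest and repair, other targets for death, and the BCL2 family. Among the regulators, 12 of 14 could be tested. *Cdkn2a*, which encodes p16Ink4a and p19Arf, rose with passage in both sets, from 118.4 to 265.0 CPM in early to 350.8 to 603.0 CPM in late WT MEFs of the *S6K1* set (log2 fold change 1.20 ± 0.27, adjusted *P* = 0.0137) and from 178.0 to 323.8 CPM to 339.8 to 614.2 CPM in the *S6K1/S6K2* set (1.10 ± 0.25, adjusted *P* = 0.0156). The early and late libraries did not overlap in either set. *Mdm4*, which encodes a relative of MDM2 that masks the activation domain of p53, fell in both sets, from 48.6 to 56.3 CPM to 27.4 to 33.8 CPM (−0.79 ± 0.12, adjusted *P* = 0.00148) and from 48.6 to 82.8 CPM to 36.4 to 47.4 CPM (−0.54 ± 0.16, adjusted *P* = 0.0450), again without overlap. In the *S6K1* set *Atm*, the kinase that signals DNA double-strand breaks, also fell (−1.19 ± 0.34, adjusted *P* = 0.0398), while its groups overlapped. The median of the list was −0.20 in the *S6K1* set and 0.01 in the *S6K1/S6K2* set.

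Of 18 arrest and repair targets, 1 rose and 2 fell with passage in the *S6K1* set and 2 rose and 1 fell in the *S6K1/S6K2* set, with medians of −0.01 and 0.22. That is 3 of 18 in each set, near the 12.9% and 13.2% of all genes that passed. *Cdkn1a*, which encodes the CDK inhibitor p21, did not pass in either set (log2 fold change 0.05 ± 0.18, adjusted *P* = 0.893, and 0.47 ± 0.18, adjusted *P* = 0.0953). In the *S6K1* set its levels were 521.0 to 673.2 CPM in early WT, 449.7 to 727.7 CPM in late WT and 599.7 to 851.6 CPM in late KO MEFs, and 391.8 to 628.7 CPM in early WT, 573.9 to 839.8 CPM in late WT and 740.7 to 880.3 CPM in DKO MEFs of the other set. *Ddit4*, an inhibitor of mTORC1 that hypoxia and other stresses also induce, fell in both sets (−0.64 ± 0.12, adjusted *P* = 0.00379, and −0.70 ± 0.12, adjusted *P* = 0.00324). *Sesn1*, a stress-induced inhibitor of mTORC1, rose in the *S6K1* set (1.18 ± 0.20, adjusted *P* = 0.00242) and *Fdxr*, a mitochondrial reductase, fell there (−0.69 ± 0.21, adjusted *P* = 0.0474). In the *S6K1/S6K2* set *Dcxr*, a carbonyl reductase, rose by 0.89 ± 0.22 on the log2 scale (adjusted *P* = 0.0198) and *Gtse1*, a negative regulator of p53 in the G2 phase, by 0.40 ± 0.11 (adjusted *P* = 0.0328).

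Of 12 other death targets, 2 rose in each set and none fell (edgeR), with medians of 0.12 in the *S6K1* set and 0.35 in the *S6K1/S6K2* set. A count of 2 of 12 is again near the share of all genes that passed. *Perp*, a membrane protein of desmosomes that p53 induces in apoptosis, was among them in both (1.22 ± 0.34, adjusted *P* = 0.0366, and 1.48 ± 0.40, adjusted *P* = 0.0332), although its groups overlapped in the *S6K1/S6K2* set. *Ei24*, a protein of the endoplasmic reticulum, rose in the *S6K1* set (0.78 ± 0.15, adjusted *P* = 0.00483), and *Fas*, the death receptor, rose in the *S6K1/S6K2* set from 22.1 to 28.9 CPM to 35.6 to 61.1 CPM (0.98 ± 0.16, adjusted *P* = 0.00248).

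Of 13 genes of the BCL2 family, 11 could be tested, and 1 rose in the *S6K1* set and 3 in the *S6K1/S6K2* set, with medians of 0.34 and 0.09. Over all genes tested, 6.96% and 8.28% passed upward. The genes that rose are known as survival proteins. In the *S6K1/S6K2* set the other 8 of 11, among them *Bcl2l1* and *Bcl2l2*, did not pass. *Bcl2a1b* rose in both (log2 fold change 2.92 ± 0.40, adjusted *P* = 0.00057, and 3.63 ± 0.73, adjusted *P* = 0.0097), and it is a member of a family of near-identical copies whose reads the counting could split, and is known as a gene of blood cells. *Bcl2* (1.02 ± 0.18, adjusted *P* = 0.00452) and *Mcl1* (0.81 ± 0.12, adjusted *P* = 0.00142) rose in the *S6K1/S6K2* set, the latter named after its value was seen. The macrophage markers rose in both comparisons, and their part in these 4 lists was not tested. None of the 53 tested genes of the 4 lists passed between late KO or late DKO and late WT MEFs (edgeR, against 0.0425% and 4.78% of all genes). At an unadjusted *P* under 0.05 there were 11 and 9 of 53, against 10.6% and 18.4% of all genes. The 2 genes nearest to it were *Sesn1* in KO MEFs (−0.78 ± 0.22, adjusted *P* = 0.234) and *Fdxr* in DKO MEFs (−0.70 ± 0.18, adjusted *P* = 0.0522), both named after their values were seen. Each was lower than in late WT MEFs without overlap.

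**Figure D3:**
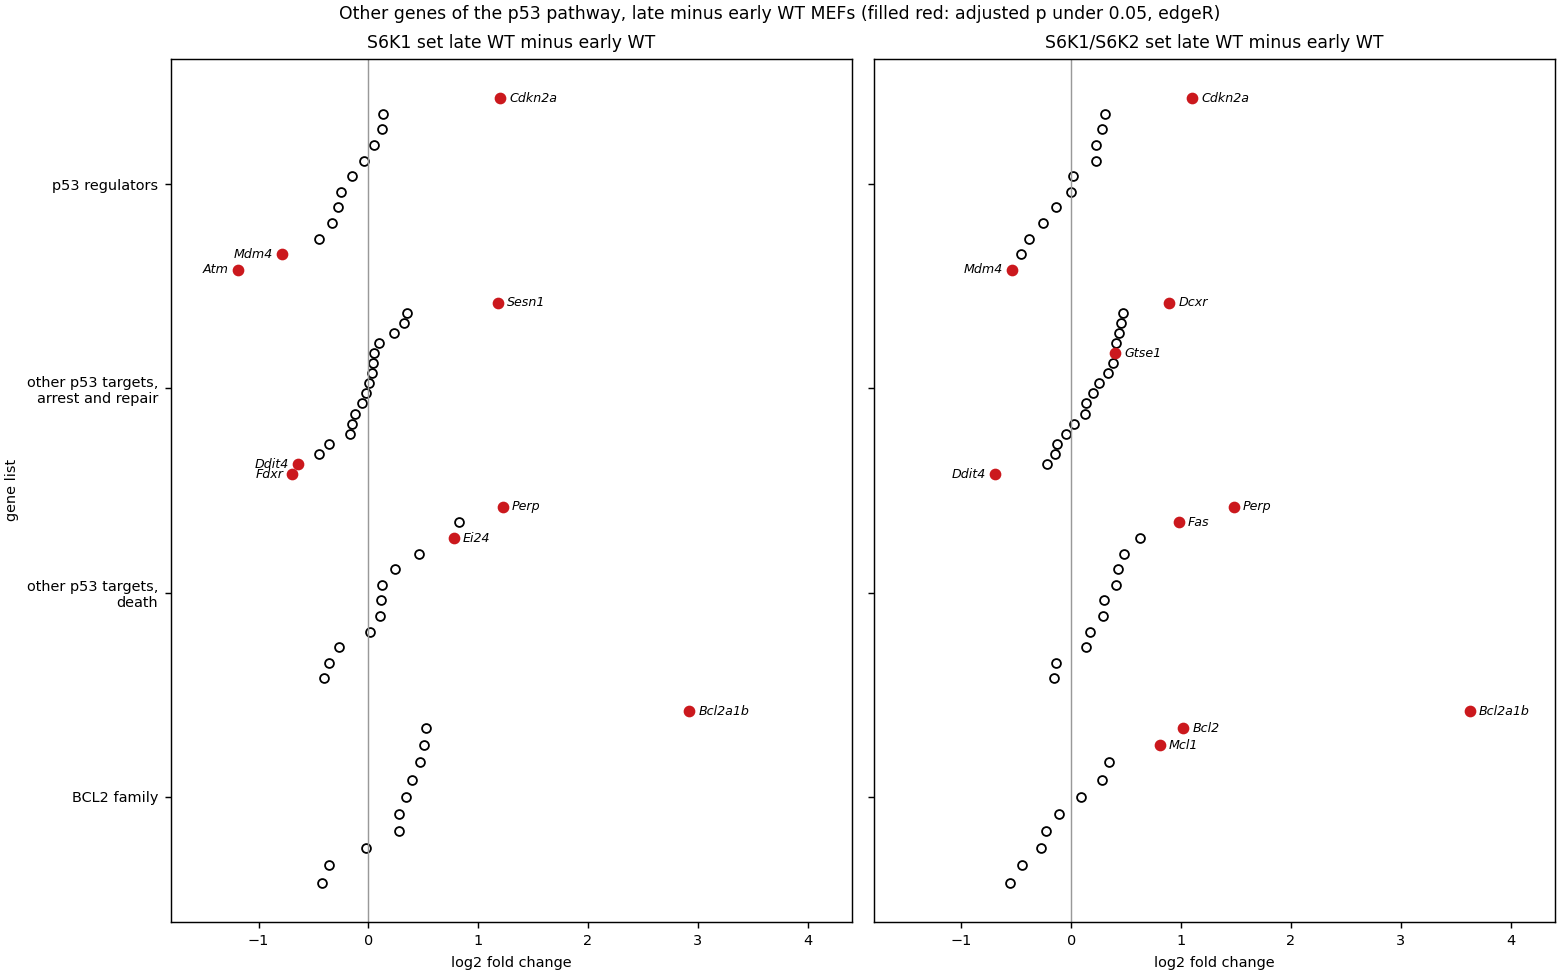
Log2 fold change from early to late WT MEFs (horizontal axes) of the tested genes in 4 lists of the p53 pathway (rows), in the *S6K1* set (left) and the *S6K1/S6K2* set (right). Each point is a gene, spread vertically by rank within its list, and filled red points with names passed an adjusted *P* of 0.05 in edgeR. *Cdkn2a*, *Perp* and *Bcl2a1b* are to the right and *Mdm4* and *Ddit4* to the left in both panels.

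Differences between libraries of the same group were used to ask which of the 10 genes varied together, with the group means removed so that passage and genotype did not enter. Among 45 pairs over 22 libraries, 34 correlations were positive and the median Pearson *r* was 0.31. *Mdm2* and *Ccng1* were the only pair that passed after Benjamini-Hochberg adjustment (*r* = 0.86, permutation *P* = 0.0004, adjusted *P* = 0.0166, Spearman rho = 0.83, permutation *P* = 0.0007, adjusted *P* = 0.0328). The correlation was 0.86 within the *S6K1* set and 0.88 within the *S6K1/S6K2* set, and 0.81 without the 2 libraries farthest from the median of *Mdm2*. *Plk2* followed both (*r* = 0.76 with *Mdm2* and 0.73 with *Ccng1*, rho = 0.71 and 0.74, permutation *P* = 0.0109 and 0.0096) without passing the adjustment (adjusted *P* = 0.0815 for both *r*).

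The correlation of *Trp53* with *Mdm2* was near 0 (*r* = 0.09, rho = 0.06, permutation *P* = 0.809 and 0.814), and that with *Ccng1* was not past the threshold (*r* = 0.33, rho = 0.28, permutation *P* = 0.261 and 0.265). Its closest partner was *Bbc3* (*r* = 0.75, rho = 0.72, permutation *P* = 0.0033 and 0.0091), and with *Bax* its correlation was negative (*r* = −0.48, rho = −0.52, permutation *P* = 0.0081 and 0.0138), but neither passed after adjustment (adjusted *P* of *r* = 0.0738 and 0.0815). Within sets, *r* with *Bbc3* was 0.80 and 0.75, and *r* with *Bax* was −0.64 and −0.38. The number of pairs that passed depended on the libraries and the scaling. It was 0 without replicate 1 or 2 of the early WT or replicate 4 of the late WT MEFs of the *S6K1* set, 3 without replicate 2 of the early WT MEFs of the *S6K1/S6K2* set, and 8 when counts were scaled by their total alone.

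**Figure D4:**
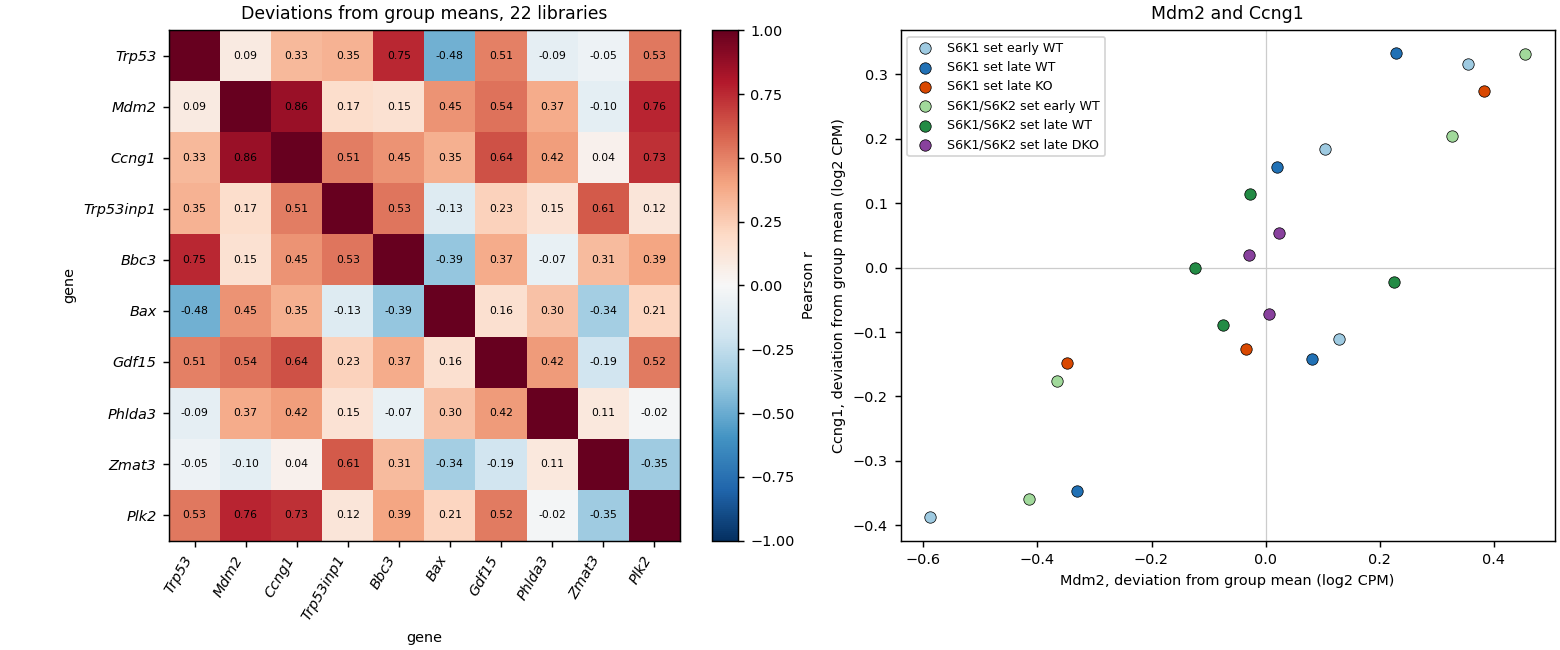
Left, Pearson correlation (colour and printed value) between *Trp53* and 9 targets over 22 libraries, each expressed as the deviation of log2 CPM from its group mean. Right, the deviations of *Mdm2* (horizontal axis) and *Ccng1* (vertical axis) in log2 CPM, 1 point per library, coloured by group, with *r* = 0.86.

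Across all 14886 genes tested over the 22 libraries, patterns most like those of 3 of the genes were listed by the Pearson correlation of log2 CPM, here with group differences included and as a description. For *Trp53* the 5 genes outside the 10 were *Reep4* (*r* = 0.91), *Prim2* (0.90), *Ogg1* (0.89), *Usp14* (0.89) and *Rbm3* (0.88). For *Mdm2* they were *Cited2* (0.93), *Scn3b* (0.91), *Hist1h1d* (0.88), *Akr1b10* (0.85) and *Kcnj4* (0.85), and for *Ccng1* they were *Dync1li1* (0.92), *Ica1l* (0.92), *Maff* (0.92), *Crip2* (0.90) and 2610019F03Rik (0.89). The correlation of *Mdm2* with *Ccng1* on this scale was 0.89. The libraries share their depth, scaling and groups, and no *P* value is attached to these values.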

How the data were processed

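RNA was extracted from MEFs with TRIzol, and stranded mRNA libraries were sequenced as single-end reads. The authors mapped reads and counted them per gene, and they deposited the counts as they were, without scaling. The paper names TopHat, mm9 and HTSeq, whereas the submitters' processing notes name CASAVA, STAR 2.7.1a, mm10 and DESeq2 1.28.1. Which of them made the table, the annotation release and the strand setting are not given in the sources used here, so counts of overlapping genes are uncertain. Symbols from a name table were found for 32589 of 55401 identifiers, which carried 97.0% of counts. *Cop1*, *Tigar*, *Pidd1* and *Adgre1* were found under older symbols. Positions and promoter sequences were from RefSeq (GRCm38.p6).

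The groups were taken from the labels. Counts were tested in R 4.3.3 with edgeR 4.0.16 (filterByExpr, TMM, robust quasi-likelihood F test, the 3 groups of a set in one fit, Benjamini-Hochberg adjustment over all genes tested, threshold 0.05). Differences between sets were interactions over 22 libraries. Log2 CPM used a prior count of 2, and correlations used 100000 resamples within groups. Alternatives were DESeq2 1.42.0, RLE scaling, no filter, Y-linked genes as a covariate, 2 or 6 groups in the fit, scaling by total counts, a prior count of 0.5 and leaving out each library. The genes named were the 10 genes, *Rps6kb1*, *Rps6kb2*, *Cdkn1a*, *Cdkn2a*, from each pathway list the called genes with the 2 largest rises and 2 largest falls at a mean of at least 1 CPM, and the 5 genes most alike to *Trp53*, *Mdm2* and *Ccng1*. The 10 genes and the lists were chosen with earlier results of these data known. Totals per library were 10742454 to 17314832 counts, and 3 counts corresponded to 0.173 to 0.279 CPM. No pair of libraries of a group agreed within sampling noise, and none was pooled. The fits were tested on simulated data.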

Additional observations from a re-analysis of the deposited data

Results flagged for a closer look

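In each of the 4 groups with 4 libraries, the highest and lowest library of each of the 10 genes was compared with the others by Dixon's criterion, 40 groups in all. It marked 4, where chance marks about 1 in 20, or 2. *Trp53* was at 65.4 CPM in replicate 3 of the late WT MEFs of the *S6K1/S6K2* set, below the other 3 libraries. *Trp53inp1* was at 106.5 CPM in replicate 3 of the early WT MEFs of the *S6K1* set, and *Phlda3* at 334.9 CPM in replicate 1 of that group, each above the others. *Bbc3* was at 20.9 CPM in replicate 1 of the early WT MEFs of the *S6K1/S6K2* set, below the others, which were at 22.7 to 22.8 CPM.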

How the results depend on the processing

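The count of 3 genes that rose with passage in the *S6K1/S6K2* set was the same with DESeq2, RLE scaling, no filter, the Y-linked covariate and 2 or 6 groups in the fit, and was 1 to 4 when a library was left out. The count of 1 in DKO MEFs was 1 with DESeq2 and RLE scaling, 0 with no filter, the Y-linked covariate, 2 groups or 6 groups in the fit, and 0 to 1 when a library was left out. The count in the *S6K1* set was 1 with the Y-linked covariate for passage and 0 in every other fit run for passage and for KO, 0 to 0 when a library was left out. Both interactions stayed at 0 in every fit run. The count of correlated pairs was 8 with scaling by total counts, 1 with a prior count of 0.5 and 0 to 3 when a library was left out. Over all genes, counts of calls moved by more than 1.5 times with DESeq2 in KO MEFs (6 to 261), with passage in the *S6K1/S6K2* set (1892 to 2845), in DKO MEFs (686 to 1206) and in the interactions of passage (106 to 222) and genotype (1 to 64, and to 3 with no filter), with the Y-linked covariate for passage in the *S6K1* set (1827 to 3288), and in KO MEFs with no filter (43), the Y-linked covariate (37) or 6 groups (16). The causes were not tested. Log2 fold changes that did not pass changed sign in these fits. With the Y-linked covariate these were *Bbc3* with passage (0.065) and *Trp53* (−0.24), *Ccng1* (−0.041) and *Phlda3* (−0.016) in KO MEFs of the *S6K1* set, and *Gdf15* in the difference of genotype effects (0.033). *Plk2* with passage in the *S6K1/S6K2* set was −0.0011 with no filter and −0.013 with 6 groups. When a library was left out, 31 of 880 log2 fold changes changed sign. With passage in the *S6K1* set the ranges were −0.11 to 0.23 for *Trp53*, −0.073 to 0.25 for *Mdm2*, −0.15 to 0.062 for *Bbc3*, −0.017 to 0.19 for *Phlda3* and −0.067 to 0.084 for *Zmat3*. In KO MEFs they were −0.29 to 0.0025 for *Trp53inp1*, −0.25 to 0.16 for *Gdf15* and −0.029 to 0.18 for *Phlda3*. With passage in the *S6K1/S6K2* set they were −0.12 to 0.031 for *Trp53* and −0.16 to 0.27 for *Plk2*, and in DKO MEFs −0.23 to 0.10 for *Bax*. For the difference in passage effect they were −0.28 to 0.021 for *Trp53* and −0.44 to 0.23 for *Gdf15*. No paired analysis was possible because the labels give no replicate numbers, and the numbers used here only name libraries in accession order. Depth limited *Gdf15*, at 4 to 41 counts per library.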
